A study of Mus musculus with 16 samples.

Results

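The genes described here encode the proteins of the cytosolic ribosome, measured in the colon of mice with and without chemically induced colitis. They were chosen by gene symbol: symbols that start with Rpl or Rps and a number, Rplp0 to Rplp2, and Rpsa, leaving out the S6 kinases and pseudogenes. The rule took 84 probes of 66 genes, out of 25697 probes and 16593 named genes on the array, and each gene was read through its brightest probe. Of the 66 genes, 58 passed the brightness filter and were tested among 9770 features, and 8 did not. The symbols of the 84 probes matched the RefSeq symbols of their gene identifiers.

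Each array, an Illumina bead array, was hybridised with RNA of 1 whole-colon sample from male C57Bl/6J mice. The groups were 4 untreated controls, 6 samples of mice given dextran sulfate sodium (DSS), a polymer that damages the gut epithelium and so brings on colitis, and 6 of mice given DSS and methylthioadenosine (MTA), a sulfur-containing nucleoside of the polyamine pathway. Doses, times and ages were not analysed here. Whether every sample stands for its own animal is not stated, so the p-values measure the spread between these samples, which may be technical.

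The ribosome is built from a small (40S) and a large (60S) subunit, each a core of ribosomal RNA with many proteins that are made in matched amounts. The large subunit carries a stalk of acidic proteins that recruits the elongation factors. The mRNAs of ribosomal proteins begin with a run of pyrimidines, the 5′ terminal oligopyrimidine (TOP) motif, through which the growth kinase complex mTORC1 controls their translation as a group. Dividing crypt cells of the colon lining rely on steady ribosome production, and free ribosomal proteins such as Rpl5 bind Mdm2 when assembly is disturbed.

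RefSeq promoter windows of the mouse assembly GRCm38.p6 were found for 57 of the 66 genes, with 68 start sites. The windows below run from 20 bases before the annotated start to the 20th base from it, 5′ to 3′ on the gene's strand. Capitals mark the longest pyrimidine tract, a C followed by at least 6 bases that are each C or T. Rps6 and Rpl22 are shown because they fell with DSS, Rps15 because its estimate was the lowest, Rps15a because it did not share the pattern of most others, and Rpl22l1, Rps27 and Rps27l as members of paralogue pairs. The regions are chr4:86857348-86857387 (minus strand) for Rps6, chr4:152325706-152325745 and chr4:152324416-152324455 (plus) for both starts of Rpl22, chr3:28805488-28805527 (plus) for Rpl22l1 and chr10:80292411-80292450 (plus) for Rps15. They are chr7:118116128-118116167 (minus) for Rps15a, chr3:90213629-90213668 (minus) for Rps27, and chr9:66946066-66946105 and chr9:66946393-66946432 (plus) for both starts of Rps27l.
Rps6: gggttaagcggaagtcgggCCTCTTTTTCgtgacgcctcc
Rpl22, start 1: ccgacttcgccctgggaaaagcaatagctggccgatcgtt
Rpl22, start 2: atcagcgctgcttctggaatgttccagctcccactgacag
Rpl22l1: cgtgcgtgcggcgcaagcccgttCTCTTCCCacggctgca
Rps15: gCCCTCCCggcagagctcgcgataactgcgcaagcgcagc
Rps15a: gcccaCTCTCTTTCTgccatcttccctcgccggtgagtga
Rps27: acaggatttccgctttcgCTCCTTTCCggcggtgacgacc
Rps27l, start 1: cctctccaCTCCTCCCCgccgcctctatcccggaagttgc
Rps27l, start 2: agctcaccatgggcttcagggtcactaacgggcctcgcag

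Of the 68 ribosomal protein promoters, 32 (47.1%) held such a tract in this window, against 18.7% of the 32851 promoters in the table. Rps6 and Rps27 carry tracts of 10 and 9 pyrimidines that span the annotated start. The tracts of Rps15a (10) and of start 1 of Rps27l (9) end before it, and neither start of Rpl22 has one in its window. Further motifs were searched on both strands of the whole promoter windows: CCGGAAG, the core bound by Ets factors, stood in 33.8% of ribosomal protein promoters against 8.86% of all, AAGATGGC, the core bound by Yy1, in 11.8% against 2.75%, and the GC box GGGCGG in 61.8% against 35.7%. TATAAA was found in 8.82% against 13.6%. CCGGAAG and AAGATGGC can overlap by 3 bases. The median log2 difference between DSS and control was -0.45 over 27 tested genes with a tract and -0.44 over 23 without, and that between DSS + MTA and DSS was 0.35 and 0.25, descriptions with no test.

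The probes of the 58 tested genes were mostly bright. Their mean log2 intensities over all 16 arrays ran from 7.15 to 14.95, and 35 lay over 13, while the array medians lay at 6.81 and the highest value on any array was 15.35. Rplp1, a stalk protein (14.95), Rpl41, a short basic peptide of the large subunit (14.93), and Rpl23, a large-subunit protein that can also bind Mdm2 (14.84), had the brightest probes. The lowest means among tested genes were those of Rpsa, the small-subunit protein also known as the laminin receptor (7.15), Rps19bp1 (7.47) and Rps15a (7.48). A probe's brightness depends on its sequence, so these values do not order the mRNAs. The 8 genes below the filter were Rplp2, Rpl39l, Rpl17, Rpl3l, Rpl14, Rpl6, Rps23 and Rps23rg1, with means of 5.88 to 6.31, and were not tested. Rps19bp1, a binding partner of Rps19, and Rps23rg1, a mouse gene derived from a copy of Rps23, were taken by their symbols and are not ribosomal subunits.

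DSS was first set against control, which asks what colitis did to these transcripts. Of the 58 genes 3 fell and none rose (limma, adjusted p at most 0.05 over 9770 features), a share near or below the background of 5.89% of all features lower and 8.68% higher. The 3 were Rpl21 and Rpl22 of the large subunit and Rps6 of the small subunit. The estimates leaned down together: 56 of 58 were below 0 (57.3% of all features were), with a median log2 difference of -0.44 against -0.04 over all features. At an unadjusted p under 0.05, 19 were lower and 1 higher, where 16.1% and 15.4% of all features were. DSS and control arrays did not overlap for Rpl21 and Rps4x, both lower, 2 of 58 genes beside 6.89% of all features lower and 8.98% higher. In whole tissue, fewer cells of a kind and less RNA per cell cannot be told apart.

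Rpl21, a large-subunit protein, had log2 intensities of 7.89, 7.95, 7.89 and 7.97 on control arrays 1 to 4, and from 7.19 through a median of 7.44 to 7.55 with DSS. All 6 DSS arrays lay below all 4 controls. The difference was -0.51 ± 0.12 (SE, limma adjusted p = 0.00977). Its second kept probe gave -0.57 ± 0.13. Both probes were dim, with mean log2 intensities of 7.54 and 7.40 where the filter lay at 6.82.

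Rps6 is the small-subunit protein that S6 kinases phosphorylate downstream of mTORC1. It stood at 12.91, 13.37, 13.20 and 13.47 on the control arrays, and its DSS arrays ran from 11.96 through 12.67 to 13.01. All 6 were below the control mean, but the highest passed control 1, so the groups overlapped. The difference was -0.63 ± 0.19 (SE, limma adjusted p = 0.0351).

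Rpl22, an RNA-binding protein of the large subunit, read 10.15, 10.76, 10.99 and 11.11 in controls, and 9.83 through 10.16 to 10.44 with DSS. The DSS arrays lay below controls 2 to 4 and on both sides of control 1, the lowest control. The difference was -0.62 ± 0.18 (SE, limma adjusted p = 0.0343). Both Rps6 and Rpl22 missed the threshold in 6 of 16 fits with 1 array removed (DSS 2, 4 or 6, or control 2, 3 or 4), whereas that of Rpl21 was kept in all 16.

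**Figure D1:**
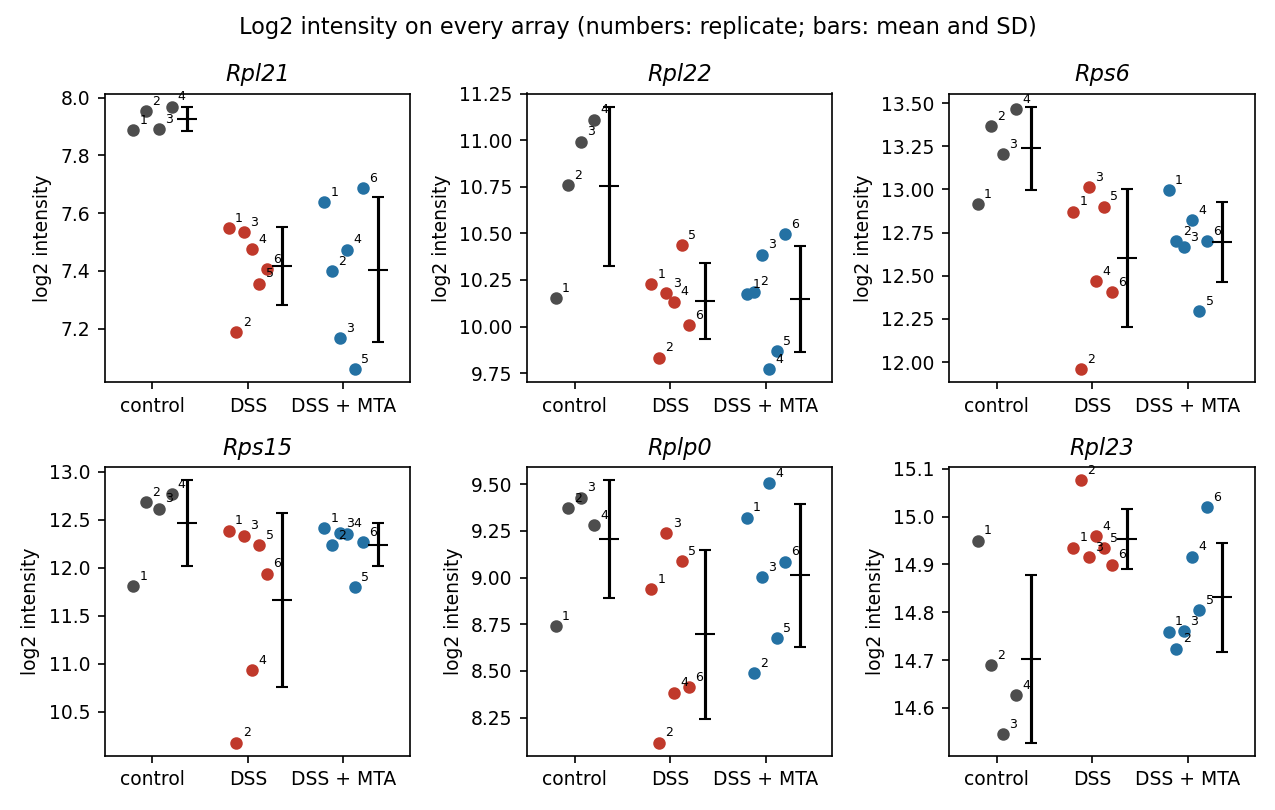
Log2 intensity (vertical axis, a separate scale in each panel) of 6 ribosomal protein genes on every array, by group on the horizontal axis. Points are arrays with their replicate numbers and bars are the group mean and SD; Rpl21 separates DSS from control on every array, while for Rps15 DSS replicates 2 and 4 lie far below the others and for Rplp0 replicates 2, 4 and 6 are the low ones.

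By role, 2 of 29 large-subunit genes and 1 of 22 small-subunit genes fell, with median differences of -0.51 and -0.45. The lowest estimate was that of Rps15, a small-subunit protein: controls read 11.80, 12.68, 12.61 and 12.76 and DSS arrays 10.18 through 12.08 to 12.38. Replicates 2 (10.18) and 4 (10.93) were the low DSS arrays, and the other DSS arrays lay between control 1 and the other controls. The difference of -0.80 ± 0.37 did not pass (limma adjusted p = 0.148).

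The stalk protein Rplp0, widely used as a reference gene in PCR, read 8.74, 9.37, 9.43 and 9.28 in controls and 8.12 through 8.68 to 9.24 with DSS, lowest on replicates 2, 4 and 6, a difference of -0.51 ± 0.24 (SE, limma adjusted p = 0.158). Rplp1 differed by -0.12 ± 0.15 and Rplp2 was below the filter. The Mdm2-binding Rpl5 differed by -0.11 ± 0.09, from 14.04 ± 0.08 (SD, n = 4) to 13.93 ± 0.14 (SD, n = 6). Rpl11, its partner on Mdm2, was not analysed here. Rpl13a, which in human myeloid cells leaves the ribosome to silence inflammatory mRNAs, differed by -0.37 ± 0.25, and Rps3, which in human cells also binds NF-kB, by -0.49 ± 0.20 (limma adjusted p = 0.114). Rpsa differed by -0.10 ± 0.10. None of these passed.

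The paralogues, second copies of a ribosomal protein gene with restricted or stress-linked expression, were compared with their partners by each gene's own difference. Rpl22l1, which Rpl22 protein restrains in mouse cells, differed by -0.31 ± 0.22, beside -0.62 for Rpl22. Rps27l, a p53 target in human cells, differed by -0.32 ± 0.23 and Rps27 by -0.35 ± 0.31. Rpl36al and Rpl36a gave -0.32 ± 0.26 and -0.57 ± 0.34, and Rpl7l1 gave -0.08 ± 0.11. None of the 4 tested paralogues passed. Rpl3l, which in mouse is a striated muscle form, and Rpl39l, a testis form in mouse, stayed below the filter, while Rpl3 differed by -0.24 ± 0.10, Rpl39 by -0.33 ± 0.29, Rpl10 by -0.30 ± 0.14 and Rps4x by -0.34 ± 0.15. Rpl7, Rpl10l and Rps4l were not analysed here. The differences between paralogue and partner were not tested.

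**Figure D2:**
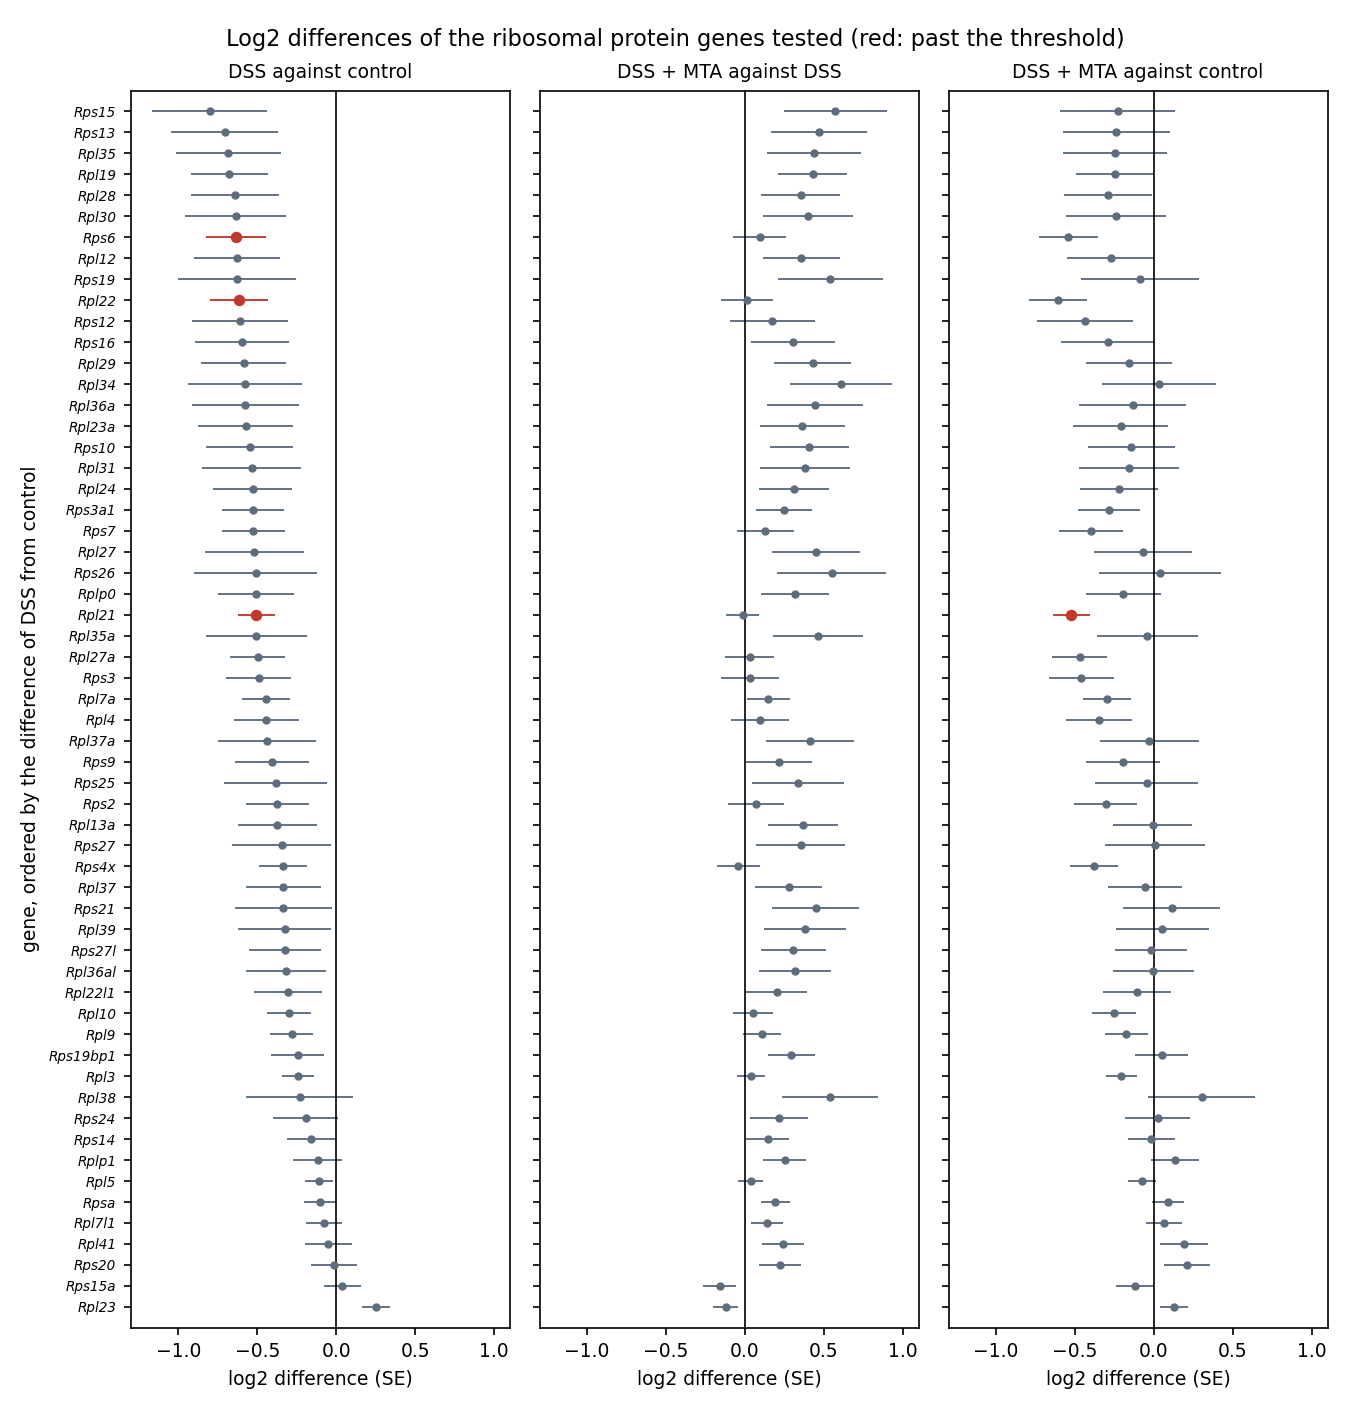
Log2 differences with their SE (horizontal axis) for the 58 tested ribosomal protein genes (vertical axis, ordered by the difference of DSS from control) in the 3 comparisons; red marks an adjusted p at most 0.05. With DSS, 56 of 58 points lie below 0 with wide error bars; for DSS + MTA against DSS, 54 of 58 lie above 0 and none is red.

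The downward lean came mostly with individual DSS arrays. Setting each gene against its control mean, the median deviation of the 58 genes was -0.03, -1.29, -0.04, -0.79, -0.06 and -0.33 on DSS arrays 1 to 6. Arrays 1, 3 and 5 were thus close to control and arrays 2 and 4 far below it. Controls 1 to 4 gave -0.37, 0.12, 0.06 and 0.18, so control 1 lay slightly below DSS array 6. The median over all 9770 features stayed between -0.07 and 0.01 on every array.

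On DSS array 2 the tested ribosomal protein genes were at their lowest of 16 arrays in 51 of 58 cases (87.9%, against 16.6% of all features), and 38 were more than 1 log2 unit below their control mean (6.47% of all features were). On DSS array 4, 18 were that low, against 2.66% of all features. The largest single deviations on array 2 were in Rps15 (-2.29), Rps19 (-2.20), a small-subunit protein mutated in human Diamond-Blackfan anaemia, Rpl35 (-2.05) and Rps26 (-2.02), and the same genes read -1.53, -1.32, -1.33 and -1.33 on array 4. Arrays 2 and 4 were the 2 lowest of all 16 for 38 genes (65.5%, against 9.42% of all features).

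The 7 genes whose lowest array was another one were Rpl21, Rpl22, Rpl23, Rpl3, Rps15a, Rps4x and Rpsa. Of the 3 genes that passed the test, Rpl21 and Rpl22 thus had their lowest value elsewhere, and Rps6 had it on DSS array 2. On that array Rpl21 deviated by -0.74, Rpl22 by -0.92, Rps6 by -1.28, Rpl5 by -0.31 and Rpsa by -0.18, while Rps15a (0.21) and Rpl23 (0.37) were above their control means.

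The spread within groups differed likewise. The median SD of the 58 genes was 0.26 in control, 0.56 in DSS and 0.22 in DSS + MTA, beside 0.16, 0.21 and 0.21 over all features. The SD was larger in DSS than in DSS + MTA for 51 of 58 genes (44.5% of all features). Without DSS arrays 2 and 4, a fit chosen after seeing the data, 1 gene fell (Rpl21, -0.46 ± 0.13, limma adjusted p = 0.0396), the median difference from control was -0.10 and 40 of 58 genes were below 0. In that fit 811 of 9770 features passed, and the share of all features below 0 was not counted. Rpl22 (-0.54) and Rps6 (-0.44) then each had an adjusted p of 0.121, and Rps15 stood at -0.25 ± 0.20.

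**Figure D3:**
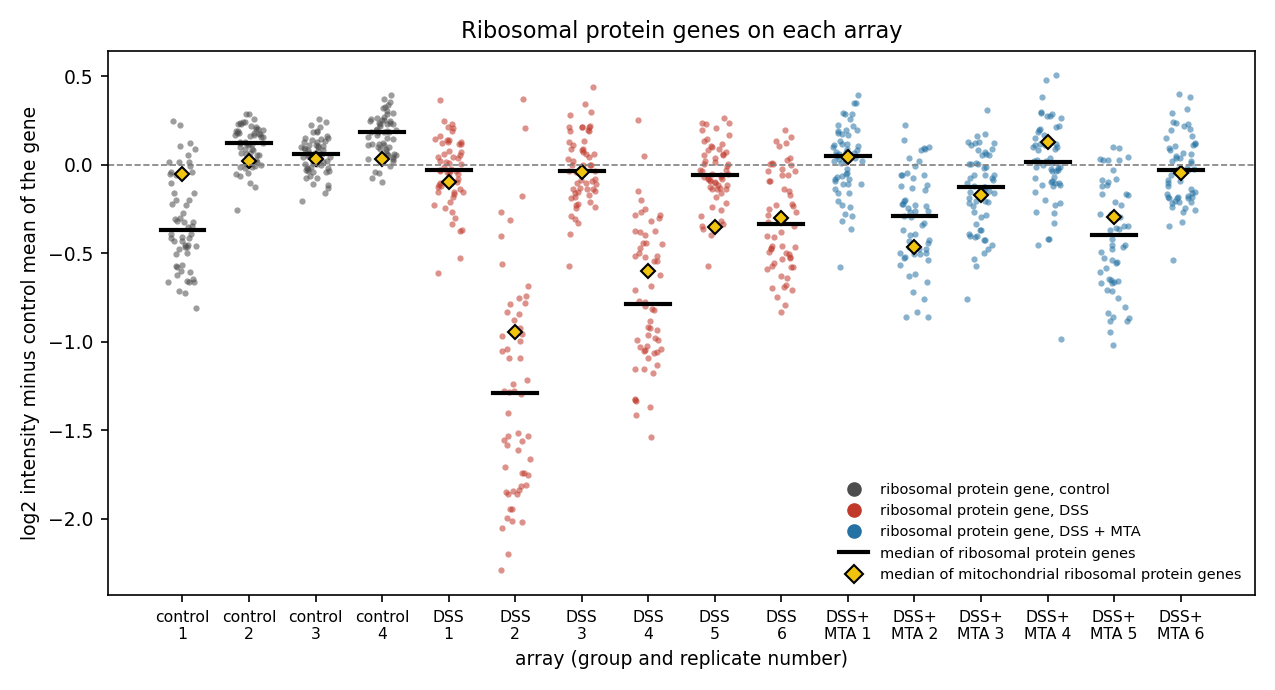
Log2 intensity minus the gene's control mean (vertical axis) on each of the 16 arrays (horizontal axis). Points are the 58 tested ribosomal protein genes, black bars their median and yellow diamonds the median of 70 mitochondrial ribosomal protein genes; DSS arrays 2 and 4 stand at medians of -1.29 and -0.79 and the other arrays between -0.39 and 0.18.

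Some other measures were extreme on DSS array 2 or 4, and others were not. DSS array 2 had the lowest median correlation with the other arrays, 0.927 over all features, and DSS + MTA array 2 the next at 0.935. DSS array 4 stood at 0.956. The intensity sums below cover every listed marker that had a probe, including markers below the brightness filter, which were not tested. Of 8 smooth muscle markers 7 were tested, and 1 rose and none fell with DSS, beside 8.68% of all features higher and 5.89% lower. All 8 summed to 62179 to 73053 in control, 67476 to 106969 in DSS and 66472 to 92259 in DSS + MTA. DSS array 2 was the highest of all. DSS array 4 stood at 85607, below DSS + MTA arrays 2 (92259) and 5 (90752). The 9 tested of 11 colonocyte markers, which cover the label of colon tissue, summed to 73136.5 to 87174 in control, 57791 to 105657 in DSS, again highest on array 2, and 70744 to 104257 in DSS + MTA. Of these 9, 1 fell and none rose with DSS, beside 5.89% of all features lower and 8.68% higher. The 8 neutrophil markers, 5 of them tested, summed to 630 to 689 in control and 994 to 2371 in DSS + MTA. In DSS they summed to 1490 to 5434, lowest on arrays 4 (1490) and 2 (1543). All 5 tested neutrophil markers rose with DSS, beside 8.68% of all features higher and 5.89% lower. For DSS + MTA against DSS 1 of the 5 fell, beside 0.317% of all features. The 5 endothelial markers, 4 of them tested, summed to 1797 to 2407 in control and 1488 to 3322 in DSS + MTA. In DSS they summed to 3025 to 5363, highest on array 2. All 4 tested ones rose with DSS, beside 8.68% of all features higher and 5.89% lower. For DSS + MTA against DSS 1 of the 4 fell, beside 0.317% of all features. Of 6 crypt base markers 4 had a probe and 2 were tested. Both tested ones fell with DSS (median -1.35), beside 5.89% of all features lower and 8.68% higher. The 4 summed to 883 to 1091 in control and 356 to 871 in DSS + MTA. In DSS the sums were 349 to 676, with arrays 6 (349), 2 (367), 5 (387) and 4 (412) low. Of 7 T cell markers 6 had a probe and 3 were tested, none past the threshold (limma, 0 at an unadjusted p under 0.05). The 6 summed to 689 to 931 in control, 562 to 754 in DSS and 629 to 2726 in DSS + MTA. DSS arrays 4 (562) and 2 (600) were the lowest of all 16. The 6 fibroblast markers summed to 6608 to 13064 in control, 16974 to 32201 in DSS and 7846 to 20972 in DSS + MTA. With DSS 3 of the 6 rose, beside 8.68% of all features. The sums of the other marker lists were ranked from the lowest of 16 arrays, on DSS arrays 2 and 4. Goblet cell markers ranked 12 and 8, macrophage 14 and 13, and B and plasma cell 12 and 7. Enteric neuron and glia markers ranked 11 and 8, adipocyte 8 and 9, and skeletal muscle 16 and 5. Pancreas markers ranked 5 and 7, liver 6 and 1, and red blood cell 15 and 2. No value on these arrays was at 0, the lowest being 42.0. RNA integrity per sample was not analysed here, and the part of these measures in the ribosomal protein values was not tested.

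Adding MTA to DSS was compared with DSS alone, which asks whether MTA altered the response. None of the 58 ribosomal protein genes passed (limma, background 0.0614% of all features higher and 0.317% lower), and at an unadjusted p under 0.05 only Rpsa was higher and none lower, where 6.5% and 8.45% of all features were. The estimates leaned up: 54 of 58 were above 0 (52.6% of all features), with a median log2 difference of 0.30 against 0.01 over all features and a range of -0.16 to 0.61. In no gene did the groups separate, as they did upward in 0.409% and downward in 0.502% of all features. Without DSS arrays 2 and 4 the median was -0.04, with 17 genes above and 41 below 0, and without array 2 alone it was 0.11. The shares of all features above and below 0 were not counted in those fits.

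Rpl34, a large-subunit protein, had the highest estimate. It read 10.94 through 12.81 to 13.07 with DSS and 12.66 through 13.04 to 13.13 with DSS + MTA, so the 6 arrays with MTA lay above DSS arrays 2, 4 and 6 and around the others. The difference of 0.61 ± 0.32 had a 95% confidence interval of -0.08 to 1.29 (limma adjusted p = 0.376), and was 0.05 ± 0.17 without DSS arrays 2 and 4. Rps15 gave 0.57 ± 0.33 (interval -0.12 to 1.27), and 0.02 ± 0.18 without them. Rpl38, which in mouse favours translation of Hox mRNAs, gave 0.54 ± 0.30.

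Rpsa, the gene with the unadjusted p under 0.05, read 6.97 through 7.01 to 7.18 with DSS and 6.94 through 7.29 to 7.39 with DSS + MTA. Of the 6 arrays with MTA, 1 was below the DSS mean, and the groups overlapped. The difference was 0.19 ± 0.09 (limma adjusted p = 0.331), in the tested gene with the lowest mean (7.15, filter at 6.82). The 3 genes that fell with DSS showed little of this lean: Rpl21 differed by -0.01 ± 0.10, Rpl22 by 0.01 ± 0.16 and Rps6 by 0.09 ± 0.17, with 95% intervals of -0.24 to 0.21, -0.34 to 0.36 and -0.27 to 0.45.

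The other genes of interest by role had estimates of 0.32 ± 0.21 for Rplp0, 0.25 ± 0.14 for Rplp1, 0.37 ± 0.22 for Rpl13a, 0.04 ± 0.08 for Rpl5 and 0.03 ± 0.18 for Rps3. Among the paralogues, Rps27l gave 0.30 ± 0.21, Rpl36al 0.31 ± 0.23, Rpl22l1 0.20 ± 0.19 and Rpl7l1 0.14 ± 0.10. None passed, which does not show that these transcripts were alike in both groups.

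DSS + MTA was also set against control, which shares its arrays with both other comparisons. Rpl21 fell and no gene rose, 1 of 58 (background 1.69% lower and 2.9% higher). Its arrays ran from 7.06 through 7.44 to 7.69, all below the 4 controls, and the difference was -0.52 ± 0.12 (SE, limma adjusted p = 0.0198). This call was lost when control 2, 3 or 4 was left out. At an unadjusted p under 0.05, 6 genes were lower and none higher, beside 10.7% and 9.96% of all features.

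Rpl22 (-0.61 ± 0.18, limma adjusted p = 0.0707) and Rps6 (-0.54 ± 0.19, adjusted p = 0.111) had the lowest estimates and did not pass, although all 6 arrays lay below the control mean in each. The median difference was -0.15 against -0.02 over all features, with 44 of 58 genes below 0 (53.1% of all). Groups did not overlap for Rpl21, Rps3 and Rps4x, 3 genes of 58, all lower (3.58% of all features were lower and 4.4% higher without overlap). The array medians of the 58 genes were 0.05, -0.29, -0.13, 0.02, -0.39 and -0.03 on DSS + MTA arrays 1 to 6. Arrays 2 and 5 were the low ones and both lay above DSS arrays 2 and 4.

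Several probes of one gene did not always give the same size. Of the 58 genes 9 had more than 1 kept probe, 19 in all. The 3 probes of Rpl23 had mean log2 intensities of 14.84, 14.34 and 10.18, and differed between DSS and control by 0.25 ± 0.09, -0.24 ± 0.17 and -0.73 ± 0.18. On DSS array 2 they stood 0.37 above, and -0.96 and -1.25 from, their control means. The direction of Rpl23 thus turned with the probe, and the dimmest one passed, downward, when it stood for the gene (limma adjusted p = 0.0134).

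The brightest probe of Rpl23 itself read 14.95, 14.69, 14.54 and 14.63 in controls and 14.90 through 14.93 to 15.08 with DSS, and its difference did not pass (limma adjusted p = 0.0639). In Rpl29, Rps3, Rps9, Rps24 and Rpl38 the dimmer probe had the lower estimate, such as -0.83 ± 0.27 against -0.59 ± 0.27 for Rpl29 and -0.57 ± 0.35 against -0.19 ± 0.20 for Rps24. Rpl31 gave -0.49 ± 0.24 with the dimmer probe and -0.54 ± 0.31 with the brighter one, and Rpl7l1 0.02 ± 0.08 and -0.08 ± 0.11. Ribosomal protein genes have many processed pseudogenes, and whether probes read more than 1 transcript, or brightness limits the differences they show, was not tested.

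**Figure D4:**
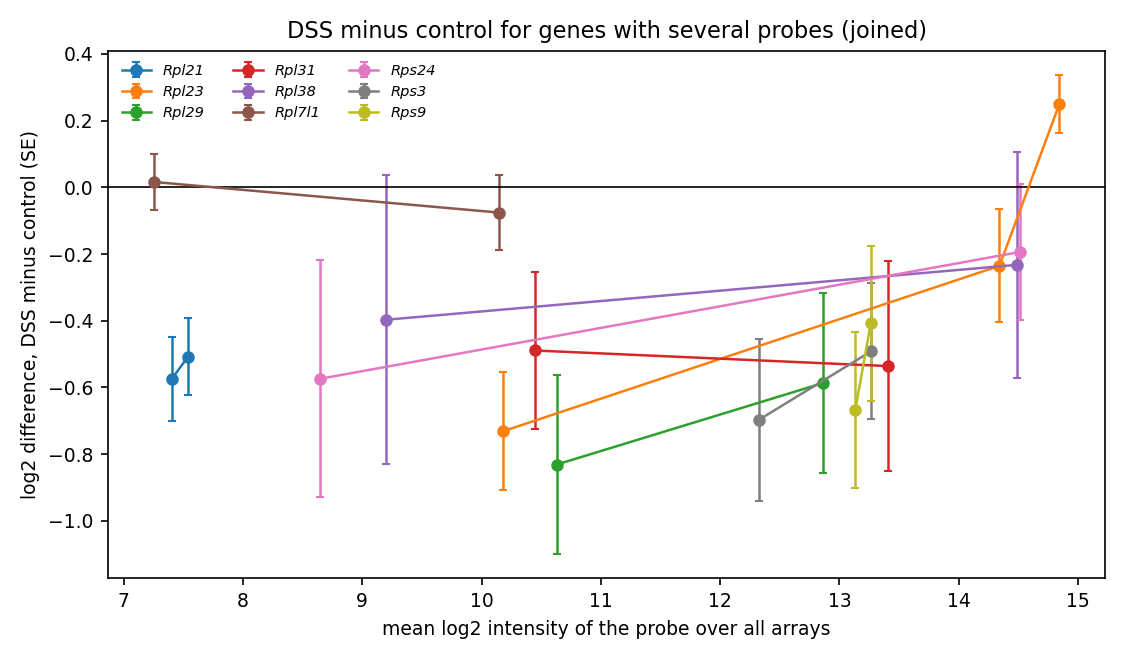
Log2 difference between DSS and control with its SE (vertical axis) against the mean log2 intensity of the probe (horizontal axis) for the 9 ribosomal protein genes with several kept probes, with probes of a gene joined. The 3 probes of Rpl23 run from -0.73 for the dimmest to 0.25 for the brightest, and both probes of Rpl21 lie below -0.5.

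Fau, the ubiquitin-like fusion gene that encodes a small-subunit protein outside the symbol rule, gave values like many others: -0.62 ± 0.30 for DSS against control, 0.53 ± 0.27 for DSS + MTA against DSS and -0.09 ± 0.30 for DSS + MTA against control, none past the threshold. Rps19bp1 gave -0.24 ± 0.17, 0.29 ± 0.15 and 0.05 ± 0.17.

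The 70 tested mitochondrial ribosomal protein genes, which serve the separate ribosome of mitochondria, leaned the same way. With DSS 6 of 70 fell and none rose, beside 5.89% of all features lower and 8.68% higher. At an unadjusted p under 0.05, 37 were lower and none higher, beside 16.1% and 15.4% of all features. The DSS and control arrays did not overlap for 12 of the 70, all lower, beside 6.89% of all features lower and 8.98% higher. All 70 estimates were below 0 (57.3% of all features) and the median was -0.40. For DSS + MTA against DSS none passed (limma), with a median of 0.27. There 13 were higher and none lower at an unadjusted p under 0.05, beside 6.5% and 8.45% of all features. Against control none passed (limma), with a median of -0.15, and 5 were lower and none higher unadjusted, beside 10.7% and 9.96% of all features. Of these 70 genes 58 were lowest on DSS array 2 (82.9%), where their median deviation was -0.95, and on DSS array 4 it was -0.60. On control array 1 it was -0.05 where the cytosolic genes stood at -0.37.

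With DSS, the lists of initiation and elongation factors had medians closer to 0 than that of the ribosomal protein genes. For DSS + MTA against DSS their medians were -0.10 and 0.06, beside 0.30 for the ribosomal protein genes. For DSS + MTA against control they were -0.17 and -0.26, beside -0.15, so not closer to 0. Beside their counts stand 5.89% of all features lower and 8.68% higher with DSS, and 1.69% and 2.9% for DSS + MTA against control. Of 21 initiation factors, 2 fell with DSS, Eif3l (-0.31 ± 0.09, limma adjusted p = 0.0384) of the scaffold eIF3 and Eif4b (-0.46 ± 0.14, adjusted p = 0.0422), a helicase cofactor whose mRNA carries a TOP motif, and the list's median was -0.09. At an unadjusted p under 0.05 with DSS, 16.1% of all features were lower and 15.4% higher. There 4 initiation factors were lower and 2 higher, among the higher Eif2s2, a subunit of eIF2, at 0.50 ± 0.21. Eif3l also fell in DSS + MTA against control (-0.44 ± 0.09, adjusted p = 0.0155). Of 7 elongation factors none passed with DSS (limma, 2 lower at an unadjusted p under 0.05, Eef1b2 at -0.63 ± 0.21 and Eef2 at -0.41 ± 0.15), with a median of -0.24, and Eef2, the translocase of the elongation cycle, fell in DSS + MTA against control (-0.63 ± 0.15, adjusted p = 0.0281). On DSS array 2 the median deviation of the initiation factors was -0.06 and that of the elongation factors -0.38, beside -1.29 for the ribosomal protein genes. Of 14 other genes with a TOP motif, 9 of which also belong to these lists, 1 fell with DSS, the median was -0.29 and array 2 stood at -0.57. In none of these 3 lists did a gene pass for DSS + MTA against DSS (limma, 1 initiation factor lower at an unadjusted p under 0.05, Eif4a2 at -0.25 ± 0.08). Unadjusted, 8.45% of all features were lower and 6.5% higher in that comparison.

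None of the genes listed here that build ribosomes or control the process passed. Of 48 ribosome biogenesis genes none passed in any comparison (limma), with a median of -0.13 for DSS against control. At an unadjusted p under 0.05, 2 were lower with DSS and 1 was lower for DSS + MTA against DSS. For DSS + MTA against control 2 were higher and 1 lower. Of all features, 16.1% were lower and 15.4% higher in the first, 8.45% and 6.5% in the second and 10.7% and 9.96% in the third. The methyltransferase Fbl differed by -0.59 ± 0.25 with DSS. Of 13 RNA polymerase I genes none passed either, with 2 lower, 4 higher and 1 higher at an unadjusted p under 0.05 in the same order. Ubtf, its promoter factor, differed by 0.34 ± 0.10 between DSS + MTA and DSS (limma adjusted p = 0.154). Of 11 mTORC1, S6 kinase and Myc genes none passed. Unadjusted, 2 were higher with DSS, 1 was lower for DSS + MTA against DSS, and 2 were higher and 2 lower for DSS + MTA against control. The translation repressor Eif4ebp1 differed by 0.54 ± 0.18 with DSS (limma adjusted p = 0.0601).

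Of 11 p53 targets, 9 estimates were below 0 with DSS (median -0.14) and 10 with DSS + MTA against control (median -0.26), and in each comparison 1 gene rose and 1 fell, beside 8.68% of all features higher and 5.89% lower with DSS and 2.9% and 1.69% with DSS + MTA. At an unadjusted p under 0.05, 3 were lower and 1 higher in each. Of all features, 16.1% were lower and 15.4% higher with DSS, and 10.7% and 9.96% for DSS + MTA against control. Mdm2, which free ribosomal proteins bind, rose with DSS (0.29 ± 0.08, limma adjusted p = 0.0185) and with DSS + MTA (0.35 ± 0.08, adjusted p = 0.015), both against the same controls. Bbc3, a mediator of cell death, fell in both (-0.62 ± 0.15, adjusted p = 0.0112, and -0.59 ± 0.15, adjusted p = 0.0326). No p53 target passed for DSS + MTA against DSS (limma, 0 at an unadjusted p under 0.05).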

How the data were processed

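The values are the authors' deposited probe intensities, on a linear scale, for 25697 probes on 16 arrays. RNA was amplified and labelled with biotin per the labels' protocols. How the intensities were scaled is not stated, and the array medians (112.012 to 112.22) show that arrays had been brought to 1 scale. A second table of un-normalized signals was not used, since its 32 columns could be given to no sample. Precision is limited by the number of arrays.

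Here log2 of the deposited intensities was taken, the brighter 50% of probes were kept (mean log2 over 6.82) and the brightest probe stood for each gene. The 9770 features entered limma's lmFit and eBayes (version 3.58.1, R 4.3.3) with 1 mean per group over 16 arrays (two-sided, Benjamini-Hochberg over all features, threshold 0.05). The steps were tested on simulated data. Figures were drawn with matplotlib 3.10.9. Promoters are from RefSeq.

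The genes, lists and tests were chosen with earlier results of these data known. Genes were named by fixed rules: up to 10 rises and 10 falls past the threshold, the brightest and dimmest probes, genes with known roles, paralogue pairs, and in pathway lists those with the smallest p. Rps15, Rpl34 and Rpl38, the other genes with several probes and those at the extremes of single arrays were named after their values were seen. Alternatives covered scaling, filters, probes per gene, samples in the fit, array weights, blocks, a smooth muscle covariate and left-out arrays.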

Additional observations from a re-analysis of the deposited data

Results flagged for a closer look

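Among 75 groups of values tested for a sample far from the others (25 measures in 3 groups), 7 had one (9.33%), where chance gives about 5% of independent groups. These measures share the same arrays and are not independent, so the 2 shares cannot be compared. In 6 of the 7 it was control replicate 1, lowest of the 4 controls by a gap of most of the group's range. Its log2 intensity was 13.1652 for Rps27 (control median 14.08), 12.9839 for its paralogue Rps27l (13.50), 13.1586 for Rpl39 (14.08), 12.8713 for Rpl36al (13.46) and 10.092 for Rpl13a (10.58). On the same array the median deviation of the mitochondrial ribosomal protein genes was -0.0537, beside a median of 0.03 over the controls. The 7th was Rpl23 on DSS replicate 2, the highest of the 6 DSS arrays at 15.0763 (median 14.93), the array on which most ribosomal protein genes were lowest. The median of the tested ribosomal protein genes was not among the 7 in DSS, where replicates 2 (-1.29) and 4 (-0.79) were both low.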

How the results depend on the processing

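For DSS against control, 3 ribosomal protein genes passed, 1 to 5 when 1 array was left out (1 without DSS replicate 2, 4 or 6 or control replicate 2, 3 or 4, and 5 without DSS replicate 1 or 3). The count was 12 with array weights (11 lower, 1 higher), 7 with the replicate number as a random block, and 1 with the smooth muscle markers taken as a covariate or, chosen after seeing the data, without DSS replicates 2 and 4. Of all 9770 features, 2577, 1894, 1027 and 811 passed in those fits, in that order, beside 1423 in the main fit. With 1 array left out, 798 to 1716 features passed. With no filter Rpl14 passed and Rps6 did not. For DSS + MTA against control, 1 gene passed, 0 to 2 when 1 array was left out (0 without control replicate 2, 3 or 4, and 2 without control replicate 1 or DSS + MTA replicate 6), 0 in the upper 25% of probes (which drops Rpl21) or with only both groups in the fit, 4 with array weights and 2 with the random block. Of all 9770 features, 448 passed there in the main fit, 160 to 720 with 1 array left out, 1088 with array weights and 741 with the random block. For DSS + MTA against DSS 0 passed in every fit run. The median differences ran from -0.57 (without control replicate 1) to -0.25 (without DSS replicate 2), from 0.11 to 0.38, and from -0.28 to -0.09 when 1 array was left out. The last median was 0.06 with the smooth muscle covariate. Rpl23 turned to -0.73 with the dimmest probe, also chosen after seeing the data. Of the values of 23 named genes under 14 settings, 7 passed only under the alternative, 9 no longer did, and 48 uncalled values changed sign. Counts over all features moved as well: from 1423 to between 798 (without control replicate 3) and 2577 (array weights) for DSS against control, from 37 to between 0 (only both groups in the fit) and 428 (smooth muscle covariate) for DSS + MTA against DSS, and from 448 to between 160 (without control replicate 3) and 1088 (array weights) for DSS + MTA against control. The causes were not tested.

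The replicate numbers of the titles were not shown to pair the samples: correlations of same-numbered deviations ran from -0.31 to 0.62. For replicate 1 they were 0.37 (control and DSS), 0.42 (control and DSS + MTA) and 0.62 (DSS and DSS + MTA). Between DSS and DSS + MTA replicate 2 it was 0.49. What these arrays share was not tested. With the replicate block, 2, 0 and 1 genes passed, for DSS against control Rpl21 and Rps3a1, and the medians were -0.49, 0.30 and -0.18. Of all 9770 features, 1672, 253 and 578 passed there.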
